A study of Homo sapiens with 24 samples.

Results

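Nalm6 is an established cell line of B cell precursor acute lymphoblastic leukaemia. The 12 Nalm6 libraries, of 24 in the series, formed 4 groups of 3: cells given 10 µM ibrutinib and asparaginase together, cells given asparaginase alone, cells given 10 µM ibrutinib alone and untreated cells. Treatment lasted 24 h, and the harvest time of untreated cells was not stated. For asparaginase, the design gives 1 IU/ml and the protocol 0.5 IU/ml, and which was used is not known here. No other agent or genetic change was described for any group, and separate cultures were not described, so p-values reflect how far libraries of a group scatter, possibly for technical reasons alone. The other 12 libraries came from Sem, a line of the same disease with a rearranged KMT2A gene, and were used only to ask whether the lines differed.

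The quantity described here was the departure of the combination from the sum of the single drugs. For each gene it was the change with ibrutinib on top of asparaginase (combination minus asparaginase) minus the change with ibrutinib alone (ibrutinib minus untreated), on the log2(FPKM + 1) scale. FPKM is a level scaled for transcript length and for a read total of the library. The deposited values had lost the decimal point at 1 FPKM and above, and it was restored from the fact that reads are whole. A positive departure means that the combination lay above the level reached if both single-drug changes added up, and a negative one that it lay below it, whatever the direction of the single changes. Of 13237 genes tested, 739 departed from the sum at an adjusted p under 0.05 (5.58% of the genes tested), 396 of them above it (2.99%) and 343 below it (2.59%). Here and below, p-values come from limma with Benjamini-Hochberg adjustment over all genes tested, and an error after ± is a standard error for a log2 difference and an SD (n = 3) for an FPKM mean.

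Asparaginase removes asparagine, and to a lesser degree glutamine, from the medium. Cells that run short of an amino acid accumulate uncharged tRNA, which activates the kinase GCN2, slows translation and raises the transcription factor ATF4. ATF4 and its partners bind C/EBP-ATF response elements (CARE) and raise genes of amino acid synthesis and uptake, tRNA charging and, through DDIT3, of stress-induced cell death. Ibrutinib is a covalent inhibitor of BTK, a kinase that passes on the signal of the B cell receptor and, in precursor cells, of the pre-B cell receptor.

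Genes found below the sum included members of the amino acid response, of DNA replication and of MYC-induced growth. Genes found above it included members of the mitosis, chaperone and cholesterol lists and several B lineage regulators. In the list of ATF4 and DDIT3 stress genes, 15 of 21 tested members were below the sum and 0 above, with a median departure of -0.46, against a median of 0.0011 and an interquartile range of -0.148 to 0.147 over all genes tested. In the mitosis list, 15 of 32 were above and 0 below, with a median of 0.36.

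The promoters of 4 genes are shown because they hold the CARE core, the letters TGATGNAA on either strand, and because the genes departed. The core stood in 11 of 232 matched promoters of genes below the sum (4.74%), in 2 of 303 of genes above it (0.66%) and in 133 of 8419 of all genes tested (1.58%). The windows, from RefSeq on GRCh38.p14, run from 250 bases before to 50 after the start that RefSeq gives the gene, which can differ from the start in the deposited gene coordinates printed elsewhere (as in CHAC1 and MTHFD1L), and the capitals mark the core. CHAC1 (chr15:40953221-40953520, plus strand), which degrades glutathione, MTHFD1L (chr6:150866236-150866535, plus strand), a mitochondrial enzyme of one-carbon metabolism, and BCAT1 (chr12:24949052-24949351, minus strand), a transaminase of branched-chain amino acids, lay below the sum at -1.15, -0.73 and -0.48. ARID5B (chr10:61901449-61901748, plus strand), a chromatin regulator, lay above it at 0.66.
CHAC1: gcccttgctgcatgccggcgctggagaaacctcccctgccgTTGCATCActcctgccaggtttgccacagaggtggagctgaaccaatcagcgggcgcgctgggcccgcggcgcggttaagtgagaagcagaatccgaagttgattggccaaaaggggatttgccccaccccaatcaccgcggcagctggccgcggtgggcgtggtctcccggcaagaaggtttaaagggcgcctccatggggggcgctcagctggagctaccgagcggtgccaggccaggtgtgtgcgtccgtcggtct
MTHFD1L: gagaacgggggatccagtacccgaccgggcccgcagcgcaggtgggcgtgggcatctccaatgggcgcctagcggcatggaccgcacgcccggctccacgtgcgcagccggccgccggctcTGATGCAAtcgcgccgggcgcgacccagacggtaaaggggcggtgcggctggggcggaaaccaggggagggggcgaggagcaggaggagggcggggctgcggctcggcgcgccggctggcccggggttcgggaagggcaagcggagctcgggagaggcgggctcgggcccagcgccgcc
BCAT1: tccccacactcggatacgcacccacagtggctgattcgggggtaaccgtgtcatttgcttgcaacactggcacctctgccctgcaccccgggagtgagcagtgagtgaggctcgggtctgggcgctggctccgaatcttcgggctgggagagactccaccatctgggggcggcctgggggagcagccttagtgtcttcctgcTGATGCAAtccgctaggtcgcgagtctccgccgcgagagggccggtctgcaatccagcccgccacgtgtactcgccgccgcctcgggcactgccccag
ARID5B: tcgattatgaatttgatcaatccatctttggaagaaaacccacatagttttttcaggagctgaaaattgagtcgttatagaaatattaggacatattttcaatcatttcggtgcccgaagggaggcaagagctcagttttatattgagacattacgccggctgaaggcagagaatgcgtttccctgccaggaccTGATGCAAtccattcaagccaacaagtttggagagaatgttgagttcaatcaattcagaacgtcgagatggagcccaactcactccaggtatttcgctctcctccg
In CHAC1 the core lay on the opposite strand, and in the other 3 on the strand of the gene. The palindrome CACGTG, the E-box bound by MYC and related factors, stood in 36 of 232 promoters of genes below the sum (15.5%), 16 of 303 above it (5.28%) and 900 of 8419 of all genes tested (10.7%). Of the other 4 motifs searched on both strands, the FOXO letters GTAAACA stood in 2.16% of promoters below the sum, 2.97% above it and 2.29% of all, and the E2F letters TTTNGCGC in 5.603%, 2.31% and 3.30%. The sterol element core TCACNCCA stood in 3.45%, 2.31% and 3.37%, and the XBP1 core TGACGTGG, which shares ACGTG with the E-box, in 0.43%, 1.65% and 0.99%. These shares describe letters in a window and say nothing of binding.

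Among the regulators of the amino acid response, DDIT3 (ENSG00000175197, chr12:57516588-57521737, minus strand), the stress factor also called CHOP, measured 62.6, 54.7 and 59.4 FPKM with the combination, 69.6, 57.9 and 62.4 FPKM with asparaginase alone, 18.3, 18.6 and 20.4 FPKM with ibrutinib alone and 9.22, 11.2 and 9.77 FPKM in untreated cells. Both drugs alone raised it, and combination and asparaginase libraries overlapped. The single-drug changes added up to a level of 115 FPKM, and the departure was -0.96 ± 0.12, adjusted p = 0.0014. TRIB3, a pseudokinase that ATF4 induces, averaged 137 ± 19.6 FPKM with the combination, 174 ± 18.1 FPKM with asparaginase alone, 31.97 ± 1.26 FPKM with ibrutinib alone and 22.99 ± 1.91 FPKM in untreated cells (departure -0.80 ± 0.15, adjusted p = 0.013). ATF4 itself averaged 213 ± 3.65 FPKM with the combination, 234 ± 4.86 FPKM with asparaginase alone, 212 ± 2.46 FPKM with ibrutinib alone and 197 ± 8.30 FPKM in untreated cells (departure -0.25 ± 0.06, adjusted p = 0.035). That call was lost without any 1 of the libraries other than combination 1, asparaginase 1 and untreated 3, with adjusted p of up to 0.0922.

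CHAC1 (ENSG00000128965, chr15:40952962-40956519, plus strand), the glutathione-degrading enzyme shown above, measured 11.7, 14.3 and 15.2 FPKM with the combination, 15.2, 16.4 and 17.7 FPKM with asparaginase alone, 7.69, 10.5 and 8.19 FPKM with ibrutinib alone and 4.04, 4.98 and 3.70 FPKM in untreated cells. All 3 ibrutinib libraries exceeded all 3 untreated ones, while all 3 combination libraries lay below the asparaginase ones, the nearest pair by less than the rounding. Its departure was -1.15 ± 0.18, adjusted p = 0.0052. SESN2 (ENSG00000130766, chr1:28259527-28282491, plus strand), a stress protein that restrains mTORC1, measured 10.9, 15.2 and 14.1 FPKM with the combination, 19.96, 23.4 and 20.8 FPKM with asparaginase alone, 6.12, 7.22 and 5.69 FPKM with ibrutinib alone and 4.64, 3.79 and 3.89 FPKM in untreated cells. Combination libraries lay between the asparaginase and the ibrutinib libraries without overlap, with a departure of -1.17 ± 0.17, adjusted p = 0.0035. DDIT4, another inhibitor of mTORC1, averaged 128 ± 4.10 FPKM with the combination, 160.0 ± 6.38 FPKM with asparaginase alone, 62.9 ± 3.30 FPKM with ibrutinib alone and 47.9 ± 2.57 FPKM in untreated cells (departure -0.70 ± 0.08, adjusted p = 0.00077).

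Across the whole stress list, ibrutinib alone raised 14 of 21 tested members and lowered 0, while on top of asparaginase it raised 2 and lowered 10. Over all genes tested, ibrutinib on top of asparaginase raised 1297 (9.8%) and lowered 1589 (12%), and ibrutinib alone raised 660 (4.99%) and lowered 987 (7.46%). Against untreated cells, the combination raised 18 of the 21 and lowered 3, and asparaginase alone raised 18 and lowered 2. Over all genes tested, the combination raised 32.4% and lowered 31.3%, and asparaginase alone raised 28.2% and lowered 28.1%. Of 24 members listed, 3 did not reach the expression filter. The count below the sum ranged from 12 to 16 over all alternatives tried.

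Enzymes of amino acid synthesis and related carbon metabolism were also below the sum. PCK2 (ENSG00000100889, chr14:24094053-24110598, plus strand), mitochondrial phosphoenolpyruvate carboxykinase, measured 20.1, 23.8 and 22.8 FPKM with the combination, 28.9, 31.3 and 32.7 FPKM with asparaginase alone, 14.1, 14.2 and 14.3 FPKM with ibrutinib alone and 7.88, 8.26 and 7.22 FPKM in untreated cells. Every asparaginase library exceeded every combination library, and every ibrutinib library exceeded every untreated one. The single changes added up to 54.3 FPKM (departure -1.25 ± 0.10, adjusted p = 9.8e-05). PSPH, the last enzyme of serine synthesis, averaged 24.4 ± 0.978 FPKM with the combination, 34.9 ± 0.63 FPKM with asparaginase alone, 25.01 ± 1.78 FPKM with ibrutinib alone and 21.2 ± 1.23 FPKM in untreated cells (departure -0.72 ± 0.08, adjusted p = 0.00088). GPT2, a mitochondrial alanine transaminase, averaged 19.8 ± 1.85 FPKM with the combination, 28.5 ± 1.69 FPKM with asparaginase alone, 24.5 ± 0.702 FPKM with ibrutinib alone and 20.8 ± 1.32 FPKM in untreated cells (departure -0.74 ± 0.10, adjusted p = 0.0028).

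MTHFD1L (ENSG00000120254, chr6:150865549-151101887, plus strand) showed another pattern. It measured 16.5, 17.7 and 17.9 FPKM with the combination, 31.1, 32.5 and 31.4 FPKM with asparaginase alone, 31.98, 31.5 and 31.8 FPKM with ibrutinib alone and 34.3, 33.3 and 34.7 FPKM in untreated cells. Ibrutinib changed it by -0.83 ± 0.04 on top of asparaginase and -0.10 ± 0.04 alone, and all 3 combination libraries lay below the other 9. Its departure was -0.73 ± 0.06, adjusted p = 9.8e-05. Of the 21 tested members of the amino acid synthesis list, 12 were below the sum, among them PHGDH (-0.65), PSAT1 (-0.67) and SHMT2 (-0.49) of the serine and one-carbon pathway, and 1 was above, the glutamine synthetase GLUL (0.38). The list's median was -0.42. ASNS, asparagine synthetase, was low in this line (1.05 ± 0.128 FPKM with the combination, 1.57 ± 0.138 FPKM with asparaginase alone, 0.65 ± 0.0535 FPKM with ibrutinib alone and 0.542 ± 0.0505 FPKM in untreated cells), and its departure of -0.42 did not pass the test (adjusted p = 0.095). The list's ASS1, argininosuccinate synthase, was one of the 12 at -1.96, but the decimal place of its least certain library had a posterior of only 0.82. Without genes of uncertain decimals, 12 of 20 were below the sum and the median was -0.40.

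Of the 16 tested amino acid transporters, 7 were below the sum and 0 above, with a median of -0.26. SLC6A9 (ENSG00000196517, chr1:43991500-44031467, minus strand), a glycine transporter, measured 6.88, 8.81 and 8.22 FPKM with the combination, 11.1, 11.6 and 12.5 FPKM with asparaginase alone, 5.48, 5.45 and 5.81 FPKM with ibrutinib alone and 3.36, 3.02 and 3.45 FPKM in untreated cells. The 4 groups did not overlap, with asparaginase highest and untreated lowest, and the departure was -1.13 ± 0.11, adjusted p = 0.00042. SLC3A2, the heavy chain shared by several amino acid exchangers, averaged 80.1 ± 5.62 FPKM with the combination, 95.3 ± 4.75 FPKM with asparaginase alone, 53.4 ± 1.95 FPKM with ibrutinib alone and 39.8 ± 0.907 FPKM in untreated cells (departure -0.66 ± 0.08, adjusted p = 0.0013). SLC7A5, its large neutral amino acid partner, departed by -0.77 ± 0.19, adjusted p = 0.045, a call lost without any 1 of the libraries other than asparaginase 1, with adjusted p of up to 0.107. Of 20 cytoplasmic tRNA synthetases, which charge tRNAs, 9 were below and 0 above, with a median of -0.31. WARS, for tryptophan, averaged 63.6 ± 1.59 FPKM with the combination, 78.1 ± 0.791 FPKM with asparaginase alone, 19.1 ± 0.306 FPKM with ibrutinib alone and 15.001 ± 0.67 FPKM in untreated cells (departure -0.62 ± 0.06, adjusted p = 0.00025), and LARS, for leucine, averaged 13.3 ± 1.30 FPKM with the combination, 19.1 ± 0.972 FPKM with asparaginase alone, 20.1 ± 0.644 FPKM with ibrutinib alone and 17.4 ± 0.895 FPKM in untreated cells (departure -0.69 ± 0.10, adjusted p = 0.0027).

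Other genes named for the size of their negative departure were TMIE, a component of the hair cell transduction channel (-1.45 ± 0.16, adjusted p = 0.00077), RIMS3, a presynaptic protein (-1.24 ± 0.10, adjusted p = 9.8e-05), PDGFA, a growth factor (-1.02 ± 0.12, adjusted p = 0.0013), ITGA6, the laminin-binding integrin alpha chain (-0.97 ± 0.08, adjusted p = 9.8e-05), and VEGFA, the angiogenic growth factor (-0.83 ± 0.08, adjusted p = 0.00025). In all 5, asparaginase alone gave the highest mean. RIMS3 measured 54.96, 60.8 and 64.1 FPKM with the combination, 81.8, 90.4 and 93.1 FPKM with asparaginase alone, 54.8, 55.5 and 54.8 FPKM with ibrutinib alone and 35.3, 31.5 and 34.9 FPKM in untreated cells. Its combination libraries overlapped none of the asparaginase libraries. F2RL3, a thrombin receptor, averaged 13.98 ± 1.79 FPKM with the combination, 19.4 ± 2.29 FPKM with asparaginase alone, 24.4 ± 1.26 FPKM with ibrutinib alone and 17.1 ± 1.63 FPKM in untreated cells (departure -0.94 ± 0.15, adjusted p = 0.0055), highest with ibrutinib alone. CPNE7, a calcium-dependent membrane-binding protein, measured 10.2, 15.5 and 15.9 FPKM with the combination, 28.3, 30.9 and 32.2 FPKM with asparaginase alone, 31.7, 30.1 and 29.1 FPKM with ibrutinib alone and 38.8, 36.5 and 35.1 FPKM in untreated cells. All 3 combination libraries lay below the other 9, and combination 1, the lowest, was 10.2 FPKM. Its departure of -0.83 ± 0.18, adjusted p = 0.026 was lost without any 1 of asparaginase 2, asparaginase 3, the 3 ibrutinib libraries or untreated 3, with adjusted p of up to 0.0686.

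**Figure D1:**
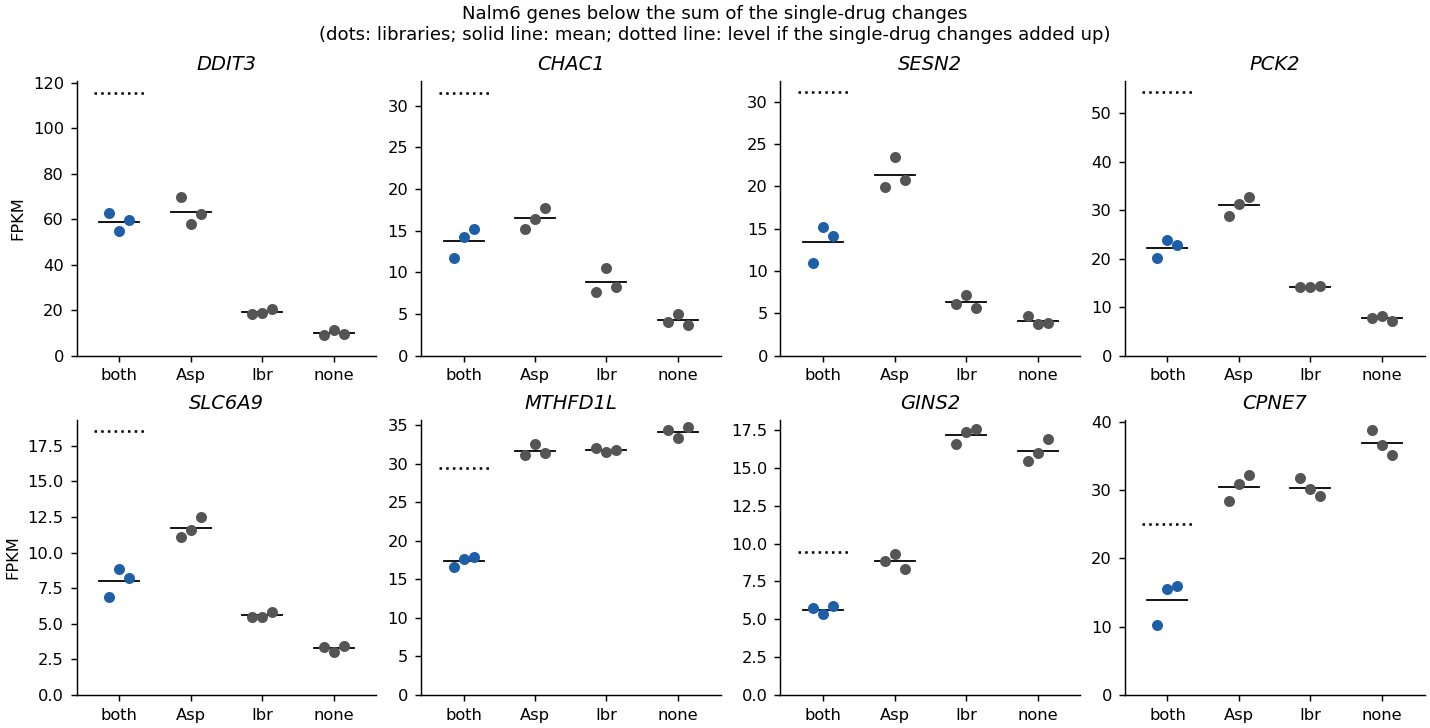
FPKM of 8 Nalm6 genes below the sum, with 3 dots per group (both, combination; Asp, asparaginase; Ibr, ibrutinib; none, untreated), the group mean as a solid line and, over the combination, a dotted line at the level reached if the single-drug changes added up on the log2(FPKM + 1) scale. In each panel the 3 combination dots lie below the dotted line, and in MTHFD1L, GINS2 and CPNE7 also below every other library.

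Genes of DNA replication were lowered by asparaginase alone (37 of 39 tested members) and by the combination (39 of 39). Ibrutinib lowered 35 of 39 on top of asparaginase and 8 of 39 alone. In the departure, 12 were below the sum and 1, RFC5 (0.30), a clamp loader subunit, was above (0 without any 1 of combination 3, asparaginase 2, ibrutinib 2, ibrutinib 3, untreated 1 or untreated 3), with a median of -0.28. GINS2 (ENSG00000131153, chr16:85676198-85690073, minus strand), a subunit of the replicative helicase, measured 5.73, 5.32 and 5.84 FPKM with the combination, 8.86, 9.33 and 8.32 FPKM with asparaginase alone, 16.6, 17.4 and 17.6 FPKM with ibrutinib alone and 15.5, 16.01 and 16.9 FPKM in untreated cells. All 3 combination libraries lay below the other 9, ibrutinib and untreated libraries overlapped, and the departure was -0.65 ± 0.08, adjusted p = 0.001. UNG, a uracil DNA glycosylase, averaged 15.4 ± 0.964 FPKM with the combination, 22.03 ± 0.94 FPKM with asparaginase alone, 43.6 ± 1.54 FPKM with ibrutinib alone and 43.6 ± 3.76 FPKM in untreated cells (departure -0.49 ± 0.09, adjusted p = 0.015), and CHAF1B, a histone chaperone, departed by -0.47 ± 0.08, adjusted p = 0.0064. CCNE1 and CCNE2, the E cyclins that start replication, and E2F2, an activator of S phase genes, were the 3 of 17 tested members of the G1 list below the sum (-0.61, -0.58 and -0.52), and 0 were above. CCNE2 lost its call without untreated 3 or ibrutinib 2, with adjusted p of up to 0.0577. The count of 12 replication genes below the sum was 9 without ibrutinib 1. Without combination 1, asparaginase 1 and untreated 2, whose profiles stood apart in their groups, 21 replication genes were below.

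Of 36 tested genes of MYC and MYC-induced growth, 8 were below the sum and 1 above, with a median of -0.28. NOLC1, a nucleolar phosphoprotein, averaged 56.9 ± 0.968 FPKM with the combination, 91.1 ± 0.402 FPKM with asparaginase alone, 136 ± 2.12 FPKM with ibrutinib alone and 150.2 ± 3.74 FPKM in untreated cells (departure -0.53 ± 0.05, adjusted p = 0.00033), and RRP9, a small nucleolar ribonucleoprotein component, departed by -0.42 ± 0.08, adjusted p = 0.014. PAICS, an enzyme of purine synthesis, averaged 25.6 ± 1.97 FPKM with the combination, 38.2 ± 0.548 FPKM with asparaginase alone, 75.6 ± 0.898 FPKM with ibrutinib alone and 86.5 ± 3.42 FPKM in untreated cells (departure -0.37 ± 0.08, adjusted p = 0.018). Of 19 tested genes of purine and pyrimidine nucleotide synthesis, 5 (PAICS, PPAT, GART, ATIC and the pyrimidine enzyme CTPS1) were below and 0 above (median -0.20), with 2 or 3 below without any 1 of the libraries other than combination 1 and untreated 1. PAICS, PPAT and GART are also among the 8 below the sum in the MYC list. The count of 8 was 4 or 5 without any 1 of the libraries other than untreated 2 and combination 1, 12 without combination 1 and 15 without combination 1, asparaginase 1 and untreated 2 together. MYC itself averaged 147 ± 22.9 FPKM with the combination, 225 ± 19.1 FPKM with asparaginase alone, 293 ± 8.37 FPKM with ibrutinib alone and 334 ± 22.3 FPKM in untreated cells, and its departure of -0.44 did not pass the test (adjusted p = 0.12). Of 31 ribosome biogenesis genes, 4 were below the sum and 0 above, 1 or 2 without any 1 of combination 2, combination 3, asparaginase 1, asparaginase 2, the 3 ibrutinib libraries or untreated 3, 7 without combination 1 and 8 without the set of 3.

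Of 32 tested mitotic genes, 15 were above the sum and 0 below. Ibrutinib raised 13 of the 32 on top of asparaginase and lowered 0. Alone, it raised 0 and lowered 19. Asparaginase alone raised 3 and lowered 20, and the combination raised 5 and lowered 18 against untreated cells. CDC20 (ENSG00000117399, chr1:43358955-43363203, plus strand), the activator of the anaphase-promoting complex, measured 59.2, 67.3 and 68.02 FPKM with the combination, 47.7, 52.7 and 56.5 FPKM with asparaginase alone, 56.1, 55.8 and 53.1 FPKM with ibrutinib alone and 76.7, 79.6 and 83.7 FPKM in untreated cells. Untreated libraries were highest, and combination libraries exceeded those of both single drugs. The single changes added up to 35.8 FPKM (departure 0.84 ± 0.10, adjusted p = 0.0011). AURKA, a spindle kinase, averaged 23.2 ± 0.311 FPKM with the combination, 17.7 ± 1.10 FPKM with asparaginase alone, 20.8 ± 0.814 FPKM with ibrutinib alone and 29.2 ± 1.55 FPKM in untreated cells (departure 0.84 ± 0.08, adjusted p = 0.00025), and PLK1, a mitotic kinase, averaged 24.2 ± 2.55 FPKM with the combination, 19.99 ± 1.27 FPKM with asparaginase alone, 18.98 ± 0.377 FPKM with ibrutinib alone and 27.4 ± 2.05 FPKM in untreated cells (departure 0.77 ± 0.11, adjusted p = 0.0035). CENPA, the centromeric histone, departed by 0.80 ± 0.12, adjusted p = 0.0036, and its 3 combination libraries lay above the other 9. The 15 members above the sum also included CCNB1 (0.67), CCNA2 (0.36), BUB1 (0.41) and BIRC5 (0.52), and the count ranged from 12 to 22 over the alternatives.

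Asparaginase alone lowered 17 of 26 tested chaperones and degradation factors of the endoplasmic reticulum and 19 of 20 heat shock genes. On top of it, ibrutinib raised 12 and lowered 2 members of the first list and raised 6 and lowered 3 of the second. HSPA5 (ENSG00000044574, chr9:125234853-125241330, minus strand), an abundant Hsp70 of the endoplasmic reticulum, measured 63.4, 62.6 and 62.1 FPKM with the combination, 42.6, 43.3 and 41.4 FPKM with asparaginase alone, 133, 135 and 139.5 FPKM with ibrutinib alone and 157, 167 and 160.0 FPKM in untreated cells. The groups did not overlap, with asparaginase alone lowest and the combination next. The departure was 0.80 ± 0.06, adjusted p = 5.6e-05. Ibrutinib changed HSPA5 by 0.55 ± 0.04 on top of asparaginase and -0.24 ± 0.04 alone. CALR, a calcium-binding chaperone, averaged 189.7 ± 9.38 FPKM with the combination, 139.5 ± 3.11 FPKM with asparaginase alone, 338 ± 11.7 FPKM with ibrutinib alone and 372 ± 14.4 FPKM in untreated cells (departure 0.58 ± 0.07, adjusted p = 0.0013), and MANF, a secreted stress protein, departed by 0.55 ± 0.11, adjusted p = 0.014. In the endoplasmic reticulum list, 6 of 26 were above the sum and 1 below, EDEM1 (-0.48 ± 0.08, adjusted p = 0.0055), which sends misfolded glycoproteins to degradation and was highest with the combination. EDEM1 averaged 147 FPKM with the combination, 120 FPKM with asparaginase alone, 64.1 FPKM with ibrutinib alone and 37.2 FPKM in untreated cells. On the linear FPKM scale, its single-drug differences added up to almost the combination level. The list's median was 0.17.

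HSPB1 (ENSG00000106211, chr7:76302544-76304295, plus strand), a small heat shock protein, measured 69.8, 94.9 and 85.3 FPKM with the combination, 48.4, 59.1 and 60.9 FPKM with asparaginase alone, 157, 158 and 155 FPKM with ibrutinib alone and 265, 213 and 272 FPKM in untreated cells. The single changes added up to 34.98 FPKM and every combination library exceeded every asparaginase library (departure 1.22 ± 0.18, adjusted p = 0.0035). HSPA8, the constitutive cytosolic chaperone, averaged 241 ± 18.9 FPKM with the combination, 179.9 ± 6.73 FPKM with asparaginase alone, 550.2 ± 14.3 FPKM with ibrutinib alone and 660.1 ± 25.5 FPKM in untreated cells (departure 0.68 ± 0.08, adjusted p = 0.0014). HSPA1B (0.71) shares near-identical sequence with HSPA1A, and reads may have been split between them. Of 20 tested heat shock genes 7 were above and 1 below (median 0.20), with 4 above without any 1 of untreated 3, combination 2 or the 3 ibrutinib libraries. Of 31 proteasome subunits, 6 were above and 0 below (median 0.27). The count above was 4 without untreated 3, 10 without combination 1 and 11 without the set of 3. PSMD11, a regulatory subunit, averaged 17.1 ± 0.369 FPKM with the combination, 14.9 ± 0.701 FPKM with asparaginase alone, 25.7 ± 0.663 FPKM with ibrutinib alone and 31.4 ± 0.522 FPKM in untreated cells (departure 0.47 ± 0.06, adjusted p = 0.0019).

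Each drug alone lowered most genes of cholesterol synthesis and uptake. The combination lowered 20 of 23 tested members, asparaginase alone 21 and ibrutinib alone 17. INSIG1 (ENSG00000186480, chr7:155297776-155310235, plus strand), which retains the cholesterol sensor SCAP, measured 34.4, 30.9 and 32.6 FPKM with the combination, 24.1, 25.1 and 24.4 FPKM with asparaginase alone, 33.4, 36.1 and 36.8 FPKM with ibrutinib alone and 61.7, 62.4 and 61.9 FPKM in untreated cells. Both single-drug groups lay below untreated cells. Combination libraries exceeded all asparaginase libraries and overlapped those of ibrutinib (departure 1.19 ± 0.07, adjusted p = 3.8e-05). HMGCS1, an early enzyme of the pathway, averaged 14.8 ± 1.49 FPKM with the combination, 18.6 ± 0.799 FPKM with asparaginase alone, 40.9 ± 1.23 FPKM with ibrutinib alone and 79.7 ± 5.24 FPKM in untreated cells (departure 0.63 ± 0.10, adjusted p = 0.0052), and FDFT1, which makes squalene, averaged 21.2 ± 0.207 FPKM with the combination, 24.2 ± 0.362 FPKM with asparaginase alone, 34.5 ± 0.813 FPKM with ibrutinib alone and 57.5 ± 0.644 FPKM in untreated cells (departure 0.54 ± 0.05, adjusted p = 0.00025). The combination was still the lowest group for HMGCS1 and FDFT1. In all, 6 members were above the sum and 1 below (PMVK, -0.42), with a median of 0.30. The count above was 4 without ibrutinib 1, 4 with quantile normalization and 10 without the set of 3. Of 12 tested fatty acid synthesis genes, limma called 0 (median 0.15) and voom 0, while 5 had an unadjusted p under 0.05 and 3 were above without the set of 3.

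Genes with the largest positive departure included regulators and surface proteins of lymphoid cells. KLF2 (ENSG00000127528, chr19:16324817-16327874, plus strand), a transcription factor of lymphocyte quiescence and homing, measured 18.2, 30.7 and 31.6 FPKM with the combination, 13.1, 17.5 and 16.2 FPKM with asparaginase alone, 6.95, 5.94 and 5.15 FPKM with ibrutinib alone and 12.9, 10.5 and 12.5 FPKM in untreated cells. All 3 combination libraries lay above the other 9, although combination 1 was far below the other two. Its change with ibrutinib was 0.72 ± 0.19 on top of asparaginase and -0.89 ± 0.19 alone, and the departure was 1.60 ± 0.27, adjusted p = 0.0067. PRKCZ (ENSG00000067606, chr1:2050470-2185395, plus strand), an atypical protein kinase C, measured 6.08, 6.14 and 6.16 FPKM with the combination, 1.09, 1.16 and 1.18 FPKM with asparaginase alone, 2.64, 2.41 and 2.69 FPKM with ibrutinib alone and 1.92, 1.66 and 1.82 FPKM in untreated cells. The combination libraries stood above the other 9, asparaginase alone was lowest, and the departure was 1.38 ± 0.09, adjusted p = 3.8e-05. P2RY8 (ENSG00000182162, chrX:1462572-1537107, minus strand), a receptor that confines B cells to germinal centres, measured 36.4, 42.7 and 40.1 FPKM with the combination, 22.3, 26.3 and 25.5 FPKM with asparaginase alone, 19.6, 20.02 and 19.5 FPKM with ibrutinib alone and 30.3, 27.2 and 32.7 FPKM in untreated cells. Ibrutinib changed it by 0.67 ± 0.08 on top of asparaginase and -0.58 ± 0.08 alone, and the departure was 1.25 ± 0.11, adjusted p = 0.00025.

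CD22, an inhibitory co-receptor of the B cell receptor, measured 13.1, 14.9 and 14.8 FPKM with the combination, 7.58, 8.85 and 8.45 FPKM with asparaginase alone, 8.51, 9.17 and 8.33 FPKM with ibrutinib alone and 11.3, 9.44 and 10.4 FPKM in untreated cells. The combination libraries lay above the other 9 (departure 0.95 ± 0.11, adjusted p = 0.00088). EVI2B, a membrane protein of blood cells, averaged 12.6 ± 0.783 FPKM with the combination, 5.72 ± 0.738 FPKM with asparaginase alone, 3.45 ± 0.338 FPKM with ibrutinib alone and 3.82 ± 0.291 FPKM in untreated cells (departure 1.14 ± 0.13, adjusted p = 0.00073), and LRMP, an endoplasmic reticulum protein of lymphoid cells, averaged 33.1 ± 4.45 FPKM with the combination, 19.4 ± 1.22 FPKM with asparaginase alone, 13.2 ± 0.236 FPKM with ibrutinib alone and 15.8 ± 0.427 FPKM in untreated cells (departure 0.97 ± 0.11, adjusted p = 0.00088). ZNF608, a zinc finger protein, averaged 104 ± 1.12 FPKM with the combination, 54.6 ± 0.782 FPKM with asparaginase alone, 44.4 ± 1.94 FPKM with ibrutinib alone and 44.3 ± 1.17 FPKM in untreated cells (departure 0.91 ± 0.06, adjusted p = 3.8e-05). In all of CD22, EVI2B, LRMP and ZNF608 the combination was highest. LPAR6, a receptor for lysophosphatidic acid, departed by 0.99 ± 0.20, adjusted p = 0.019, a call lost without asparaginase 3 (adjusted p = 0.0505). TENT5C, a poly(A) polymerase, departed by 1.08 ± 0.12, adjusted p = 0.00064, and RNF19B, a ubiquitin ligase, by 1.04 ± 0.12, adjusted p = 0.001.

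Some large departures were found in genes of low level. GZMA, a granzyme best known from cytotoxic lymphocytes, averaged 10.6 ± 1.44 FPKM with the combination, 1.63 ± 0.397 FPKM with asparaginase alone, 3.71 ± 0.539 FPKM with ibrutinib alone and 1.56 ± 0.474 FPKM in untreated cells (departure 1.26 ± 0.22, adjusted p = 0.0089). TSPAN8, a tetraspanin, averaged 11.3 ± 1.34 FPKM with the combination, 1.75 ± 0.254 FPKM with asparaginase alone, 1.86 ± 0.107 FPKM with ibrutinib alone and 0.193 ± 0.0416 FPKM in untreated cells. Its departure of 0.89 turned to -0.13 with a pseudocount of 0.1 and to -0.59 with voom on recovered reads, neither of which passed the test, so no direction is given for it. LYZ, lysozyme, a myeloid marker, averaged 6.96 ± 0.178 FPKM with the combination, 4.19 ± 0.236 FPKM with asparaginase alone, 7.58 ± 1.03 FPKM with ibrutinib alone and 13.04 ± 1.20 FPKM in untreated cells (departure 1.33 ± 0.12, adjusted p = 0.00025). Summed FPKM of the 12 myeloid markers was 9.05 to 10.2 with the combination, 6.82 to 7.25 with asparaginase alone, 9.39 to 10.9 with ibrutinib alone and 14.1 to 16.6 in untreated cells, mostly LYZ, and the markers ELANE, S100A8, S100A9, FCGR3A and FCN1 were at 0 in every library. The T cell markers CD3D, CD3E, CD3G, CD2 and CD8A and the cytotoxic marker GZMB were also at 0. Other members of the list of 12 T and NK cell markers were measured, with TRAC at 3.55 FPKM with the combination, 7.41 FPKM with asparaginase alone, 0.592 FPKM with ibrutinib alone and 3.13 FPKM in untreated cells, and NKG7 at 1.497 to 2.38 FPKM across the group means. The summed level was 4.46 to 6.63 FPKM with the combination, 8.16 to 12.05 FPKM with asparaginase alone, 1.75 to 2.71 FPKM with ibrutinib alone and 5.18 to 6.18 FPKM in untreated cells. Neither TRAC (departure 0.50, adjusted p = 0.30) nor NKG7 (0.04, adjusted p = 0.96) was called. The part of other cell types in the departures of LYZ and GZMA was not tested. In bulk RNA, fewer cells of a kind and less RNA per cell cannot be told apart.

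**Figure D2:**
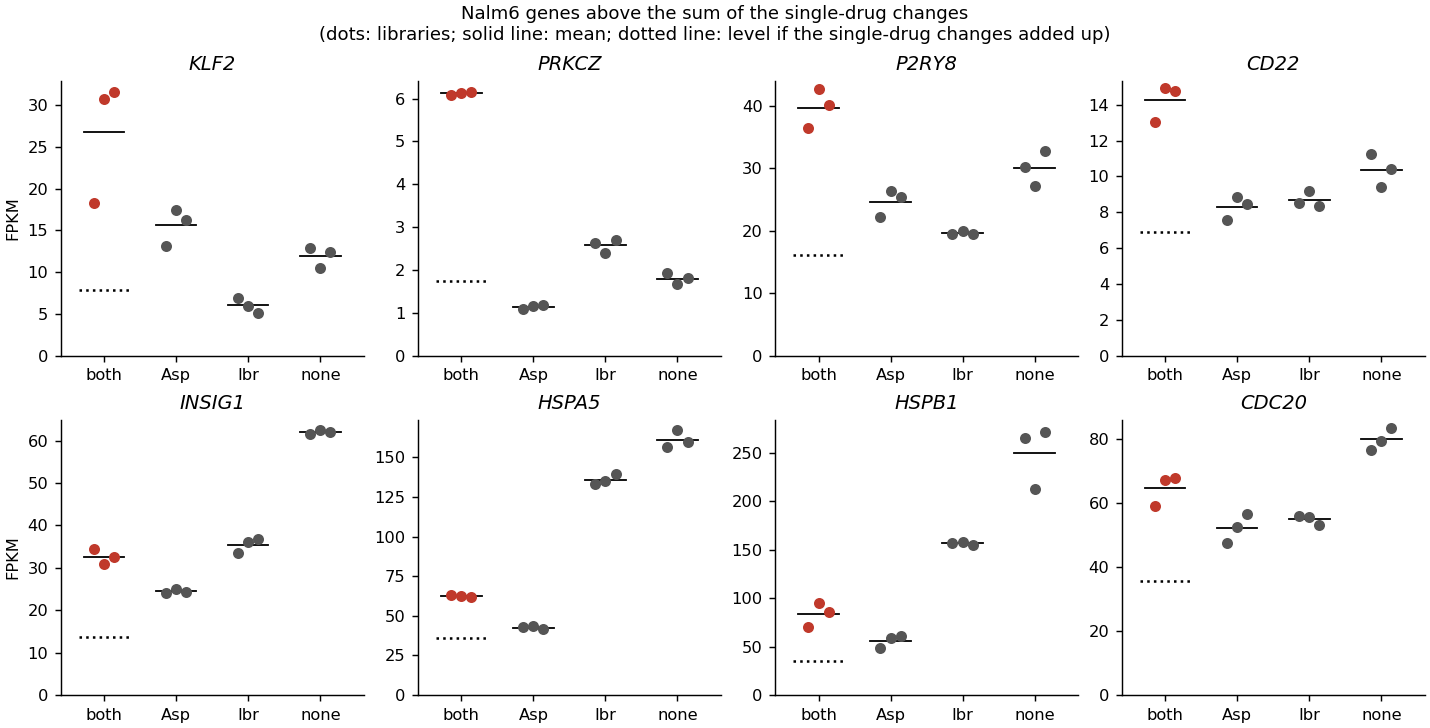
FPKM of 8 Nalm6 genes above the sum, drawn as in the plot of genes below it (both, combination; Asp, asparaginase; Ibr, ibrutinib; none, untreated; solid line, mean; dotted line, level if the single-drug changes added up). All combination dots lie above the dotted line, while only in KLF2, PRKCZ, P2RY8 and CD22 among the 8 do they lie above every other library.

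B lineage regulators were among the genes above the sum. Of 26 tested transcription factors of the lineage, 7 were above and 0 below, with a median of 0.20. Voom called 9 above and 2 below, quantile normalization 7 above and 1 below, and TPM rescaling 4 above and 1 below. LEF1, a factor of the WNT pathway active in precursor B cells, averaged 278 ± 22.2 FPKM with the combination, 173 ± 11.3 FPKM with asparaginase alone, 156 ± 5.97 FPKM with ibrutinib alone and 170.4 ± 10.98 FPKM in untreated cells (departure 0.81 ± 0.10, adjusted p = 0.0016). SOX4, required for B cell progenitors, averaged 67.05 ± 2.52 FPKM with the combination, 46.5 ± 2.16 FPKM with asparaginase alone, 41.97 ± 0.865 FPKM with ibrutinib alone and 46.8 ± 0.335 FPKM in untreated cells (departure 0.67 ± 0.06, adjusted p = 0.00025). IRF4 departed by 0.52 ± 0.08, adjusted p = 0.0036 and IKZF1 (Ikaros) by 0.53 ± 0.09, adjusted p = 0.0085. The count of 7 fell to 4 without any 1 of untreated 3, ibrutinib 2, ibrutinib 3, asparaginase 2 or combination 3 and was 13 without the set of 3. MYB, a factor of progenitor growth placed in the MYC list, averaged 112 ± 3.62 FPKM with the combination, 66.6 ± 1.88 FPKM with asparaginase alone, 88.2 ± 4.31 FPKM with ibrutinib alone and 89.3 ± 1.73 FPKM in untreated cells (departure 0.75 ± 0.07, adjusted p = 0.0002). The recombinase gene RAG1 averaged 155 ± 5.09 FPKM with the combination, 55.8 ± 1.79 FPKM with asparaginase alone, 149 ± 5.16 FPKM with ibrutinib alone and 75.6 ± 3.07 FPKM in untreated cells and departed by 0.49 ± 0.07, adjusted p = 0.0027. RAG2 departed by 0.40 ± 0.07, adjusted p = 0.0066.

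In the list of pre-B cell receptor and BTK signalling, 4 of 22 tested members were above the sum and 2 below. Those below were VPREB3 (-0.44, adjusted p = 0.031) and CD72 (-0.41, adjusted p = 0.027). The balance depended on processing, with 4 above and 6 below by voom and 3 above and 4 below after quantile normalization. The count below was 0 without any 1 of asparaginase 2, asparaginase 3, ibrutinib 1, ibrutinib 3 or untreated 1, and 1 without any 1 of combination 2, combination 3, ibrutinib 2, untreated 2 or untreated 3. VPREB1, part of the surrogate light chain, averaged 232 ± 8.01 FPKM with the combination, 142 ± 8.17 FPKM with asparaginase alone, 301 ± 19.8 FPKM with ibrutinib alone and 279.6 ± 6.20 FPKM in untreated cells (departure 0.60 ± 0.08, adjusted p = 0.0028). PIK3CD, the lymphoid PI3-kinase subunit, averaged 62.7 ± 8.80 FPKM with the combination, 39.4 ± 3.66 FPKM with asparaginase alone, 46.5 ± 3.06 FPKM with ibrutinib alone and 51.04 ± 5.11 FPKM in untreated cells (departure 0.78 ± 0.16, adjusted p = 0.017). PTPN6, a phosphatase that restrains the receptor, averaged 14.7 ± 1.68 FPKM with the combination, 28.97 ± 0.878 FPKM with asparaginase alone, 8.05 ± 0.0223 FPKM with ibrutinib alone and 24.2 ± 1.34 FPKM in untreated cells. Ibrutinib changed it by -0.94 ± 0.07 on top of asparaginase and -1.47 ± 0.07 alone, a departure of 0.54 ± 0.10, adjusted p = 0.012. BTK, the target of ibrutinib, was expressed in all groups (49.4 ± 0.523 FPKM with the combination, 42.9 ± 1.53 FPKM with asparaginase alone, 45.9 ± 1.24 FPKM with ibrutinib alone and 41.8 ± 1.04 FPKM in untreated cells), and its departure was 0.07 (adjusted p = 0.57). IGLL1, the other surrogate light chain gene, departed by -0.32 and did not pass (adjusted p = 0.12). Of the precursor B cell markers, 13 of 14 exceeded 1 FPKM in every library and CD34 was near 0. Their summed FPKM was 3264 to 3278 with the combination, 2502 to 2580 with asparaginase alone, 3443 to 3615 with ibrutinib alone and 3153 to 3307 in untreated cells.

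Of 24 tested FOXO and quiescence-linked genes, 5 were above and 1 below (median 0.17). TP53INP1, a p53-induced regulator of cell death, averaged 26.9 ± 0.149 FPKM with the combination, 9.16 ± 0.292 FPKM with asparaginase alone, 7.50 ± 0.44 FPKM with ibrutinib alone and 3.17 ± 0.163 FPKM in untreated cells (departure 0.43 ± 0.07, adjusted p = 0.0067). Each drug alone raised it, and it was highest with the combination. Of 26 p53 targets, 5 were above and 1 below (median 0.12), with MDM2, the ligase that degrades p53, at 0.68 ± 0.07, adjusted p = 0.00046. Of 16 genes of ERK feedback, 3 were above and 0 below, among them DUSP6, a phosphatase of ERK (0.47 ± 0.07, adjusted p = 0.0055), and SPRY2 (0.55 ± 0.09, adjusted p = 0.005). In the BCL2 family 1 of 14 was called, the cell death gene HRK. Voom and TPM rescaling called 2 below, quantile normalization 1 above and 2 below, and the fits without combination 1, combination 2 and ibrutinib 2 called 2 above, 2 below and 1 above. HRK was below the sum (-0.55 ± 0.09, adjusted p = 0.0058) although highest with the combination (18.7 ± 1.33 FPKM with the combination, 14.7 ± 0.729 FPKM with asparaginase alone, 14.4 ± 0.66 FPKM with ibrutinib alone and 7.39 ± 0.42 FPKM in untreated cells). BMF, another cell death gene, averaged 6.68 ± 0.279 FPKM with the combination, 3.01 ± 0.462 FPKM with asparaginase alone, 1.44 ± 0.158 FPKM with ibrutinib alone and 0.442 ± 0.0278 FPKM in untreated cells, and its departure of 0.19 did not pass the test (adjusted p = 0.45). The untreated mean of BMF lay under the pseudocount of 1, so its departure depends on that setting and no direction is given for it. Of 10 tested MHC class II genes, limma called 0 (median 0.09; 1 above without combination 1), with 1 at an unadjusted p under 0.05, 1 below the sum by voom and 2 above without the set of 3. Of 24 interferon response genes it called 0 (median 0.14; 1 above without any 1 of combination 1, combination 3 or untreated 2, and 1 below without combination 3), with 11 at an unadjusted p under 0.05, 1 below the sum by voom and 4 above without the set of 3. Some short counts depended on single libraries. Of 10 MHC class I genes 2 were above, 3 without combination 1 and 1 without any other library. Of 34 autophagy and lysosome genes 2 were above and 1 below, with 1 above without any 1 of the libraries other than combination 1, asparaginase 3 and untreated 1. Of 17 NRF2 and glutathione genes 2 were above and 1 below, with 4 above without untreated 2, 1 without any 1 of asparaginase 1, asparaginase 3, ibrutinib 1 or ibrutinib 3, and 0 without asparaginase 2, ibrutinib 2 or untreated 3. Of 22 glycolysis genes 2 were below, 1 without combination 2 or untreated 1 and 0 without any other library except combination 1. Of 15 NF-kappaB genes 1 was below, and 0 without any 1 of combination 2, combination 3, asparaginase 3, ibrutinib 2, untreated 2 or untreated 3. Of 24 genes of nutrient sensing by mTORC1, 2 were above and 3 below. Lists share genes, so their counts are not separate. The 1 below was TXNIP of the stress list among FOXO genes and SESN2 of the stress list among p53 and autophagy genes. Among NRF2 genes the 1 below was the transporter SLC7A11. Of 12 histone genes, whose copies may share reads, 2 were above and 1 below, with 3 above without combination 1, 0 without any 1 of combination 2, asparaginase 1, ibrutinib 2 or untreated 2, and 1 without any other library.

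**Figure D3:**
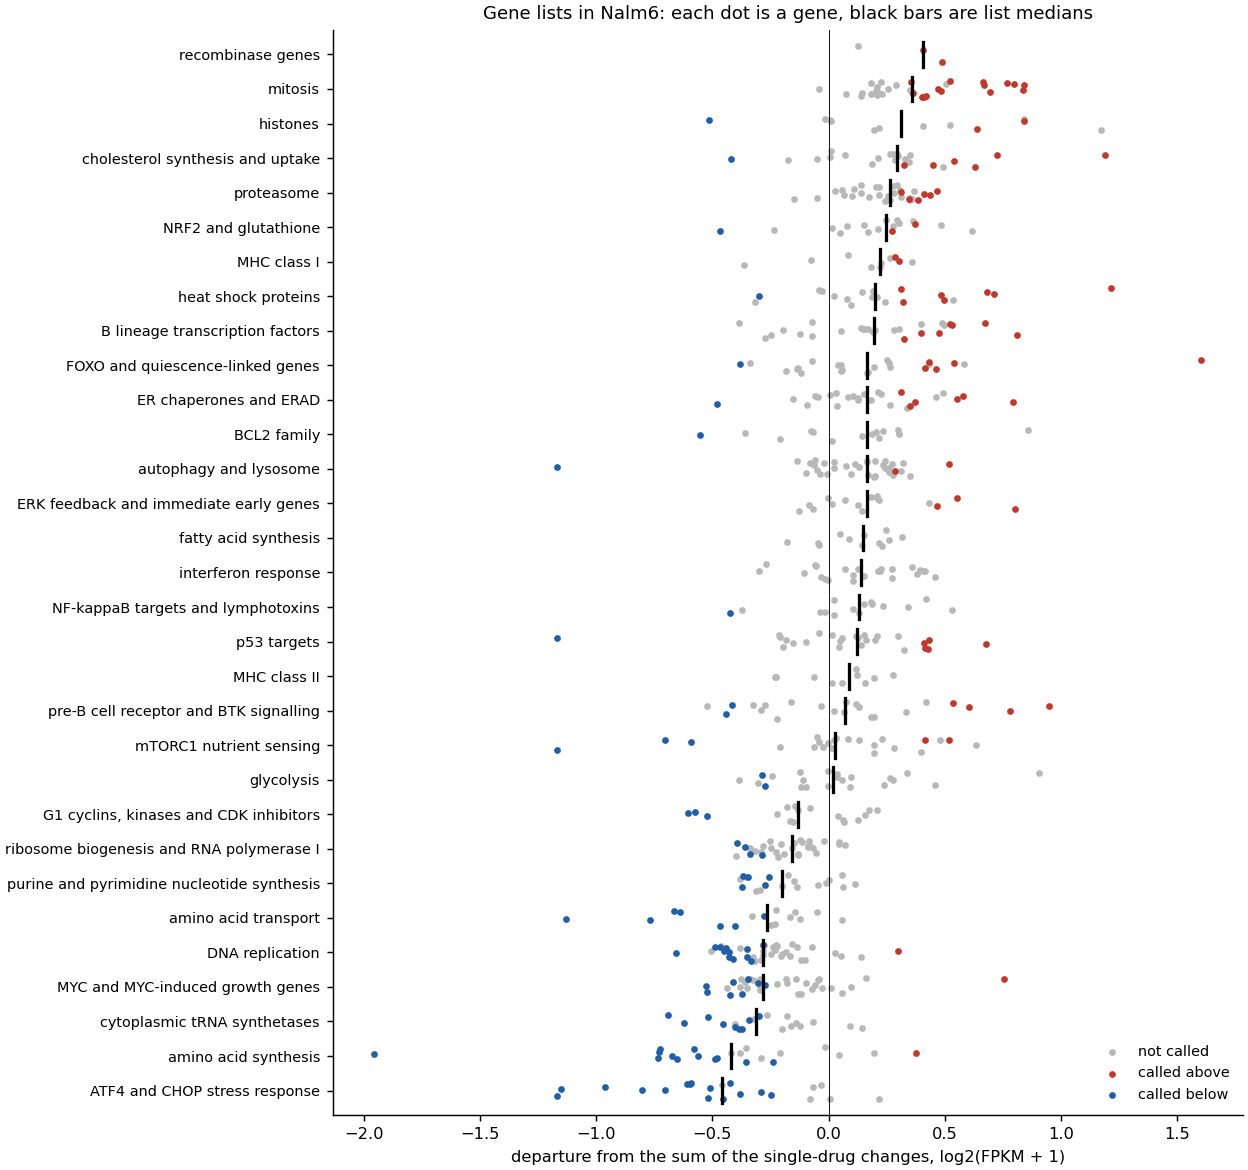
Departure from the sum for each tested member of 31 gene lists, on the log2(FPKM + 1) scale, with lists ordered by their median (black bar). Members called above and below the sum are red and blue; the ATF4, amino acid, tRNA synthetase, MYC and DNA replication lists lie to the left and mitosis, cholesterol and proteasome to the right.

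A departure did not always make the combination the extreme group. Of the 396 genes above the sum, 189 had all 3 combination libraries above the other 9, against 1580 of all genes tested (11.9%). Of the 343 below it, 153 had all 3 below the other 9, against 1608 of all genes (12.1%). Among genes above the sum, the highest group mean was found with the combination in 232, with asparaginase in 3, with ibrutinib in 5 and in untreated cells in 156. Among genes below it, the highest mean was found with the combination in 9, with asparaginase in 188, with ibrutinib in 63 and in untreated cells in 83. Over all genes tested, the combination was highest in 4517, asparaginase in 2569, ibrutinib in 1794 and untreated cells in 4357. The departure adds the combination and untreated levels and subtracts those of the single drugs. The counts among called genes therefore largely follow from how the genes were chosen.

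Ibrutinib changed more genes on top of asparaginase than alone. On top of asparaginase, 2886 genes were called, and alone 1647. The comparisons share no library. In both, 870 genes were called, 777 in the same direction, which were 26.9% of the calls on top of asparaginase and 47.2% of those alone. The other 93 changed in opposite directions. Across the 13237 genes, which are not independent replicates, the 2 changes correlated at r = 0.33.

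**Figure D4:**
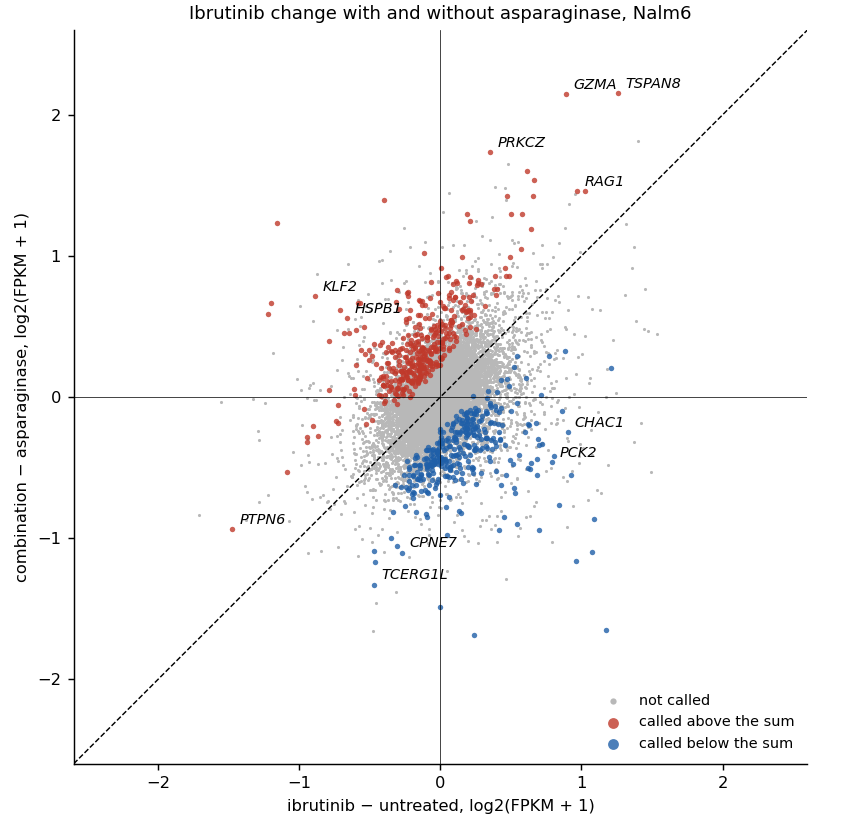
Change with ibrutinib on top of asparaginase (combination minus asparaginase, vertical) against ibrutinib alone (horizontal), in log2(FPKM + 1), one dot per gene; the dashed line marks equal changes. Genes called above the sum (396) and below it (343) lie on either side of the line, with PCK2 raised by ibrutinib alone and lowered by it on top of asparaginase, and KLF2 and HSPB1 the reverse.

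Most departures were under 2-fold. The median was 0.465 in genes called above the sum and -0.460 in those called below it, and 20 and 28 genes exceeded 1 log2 unit in either direction. At an unadjusted p under 0.05, 2687 genes departed. On the linear FPKM scale, where the expected level is the sum of the single differences, the departure had the same sign in 396 of 396 genes above and 341 of 343 below. Where both single changes have the same direction, the linear expected level is the lower one, so genes above the sum were nearly bound to agree. Where the directions are opposite it is the higher one, and genes below were nearly bound to agree. For such genes the agreement is no independent check. Rescaling each library to a fixed total (TPM) gave a median departure of -0.05 over all genes and changed the split of calls to 255 above and 477 below. The read total implied by the deposited FPKM differed from the recovered reads by a factor. It was 1.089 to 1.093 with the combination, 1.072 to 1.092 with asparaginase alone, 1.028 to 1.045 with ibrutinib alone and 0.982 to 0.995 in untreated cells. Its part in the changed split was not tested.

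The departure was set against that of Sem in 1 fit of all 24 libraries. In it, 1360 of 15116 genes departed in Nalm6 (721 above and 639 below) and 246 in Sem (98 above, 0.648%, and 148 below, 0.979%). The lines share no library. In both, 89 were called, 79 in the same direction, which were 5.81% of the Nalm6 calls and 32.1% of those in Sem. The difference between the lines itself was called for 366 of 15116 genes (2.42%), with Nalm6 above Sem in 228 (1.51%) and below it in 138 (0.913%). In 40 of the 366, every Sem group mean was under 1 FPKM, and in 30 every Nalm6 group mean was, so the line with the low level could show little departure.

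Departures of mitosis and replication genes differed between the lines. Of 32 mitosis genes, 12 departed more positively in Nalm6 than in Sem and 0 less, and the list's median departure was 0.36 in Nalm6 and -0.04 in Sem. For CDC20 the departure was 0.84 in Nalm6 and -0.14 in Sem (difference 0.97 ± 0.11, adjusted p = 5.9e-05), and for AURKA 0.84 in Nalm6 and -0.10 in Sem (difference 0.95 ± 0.11, adjusted p = 5.9e-05). Of 39 replication genes, 14 departed more negatively in Nalm6 and 0 less (medians -0.28 in Nalm6 and 0.06 in Sem). For GINS2 it was -0.65 in Nalm6 and 0.21 in Sem (difference -0.86 ± 0.10, adjusted p = 7.9e-05).

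Of 21 stress list members, 16 were below the sum in Nalm6 and 8 in Sem in this fit, and the difference was called for 2, 1 in each direction, against 2.42% of all genes. For CHAC1 the departure was -1.15 in Nalm6 and -0.94 in Sem, with a difference of -0.21 ± 0.25, adjusted p = 0.79, which did not pass the test. Of 24 cholesterol genes, 14 were above the sum in Nalm6 and 10 in Sem, with medians of 0.29 and 0.31. The difference was called for 3, with Nalm6 above Sem in 1 and below it in 2. The 1 above was INSIG1, with a departure of 1.19 in Nalm6 and 0.48 in Sem (difference 0.71 ± 0.09, adjusted p = 0.00016). The chaperone HSPA5 departed by 0.80 in Nalm6 and 0.13 in Sem (difference 0.66 ± 0.07, adjusted p = 3.8e-05).

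Of genes named for the size of the difference, PRKCZ departed by 1.38 in Nalm6 and 0.03 in Sem (difference 1.36 ± 0.13, adjusted p = 1.2e-05) and KLF2 by 1.60 in Nalm6 and -0.16 in Sem (difference 1.76 ± 0.36, adjusted p = 0.011). Sem held almost no PRKCZ (0.212 FPKM with the combination and 0.165 FPKM in untreated cells), so it could show little departure there. CD22 departed by 0.95 in Nalm6 and -0.13 in Sem (difference 1.08 ± 0.13, adjusted p = 6.8e-05), and Sem held it at 22.9 FPKM with the combination and 23.1 FPKM in untreated cells. IGLL1 had departures of opposite sign, -0.32 in Nalm6 and 1.13 in Sem (difference -1.46 ± 0.13, adjusted p = 3.3e-06), and so did VPREB3, which binds immunoglobulin heavy chains in precursor cells, -0.44 in Nalm6 and 0.69 in Sem (difference -1.13 ± 0.18, adjusted p = 0.0014). IGLL1 resembles other genes of the immunoglobulin lambda locus, with which it may share reads.

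**Figure D5:**
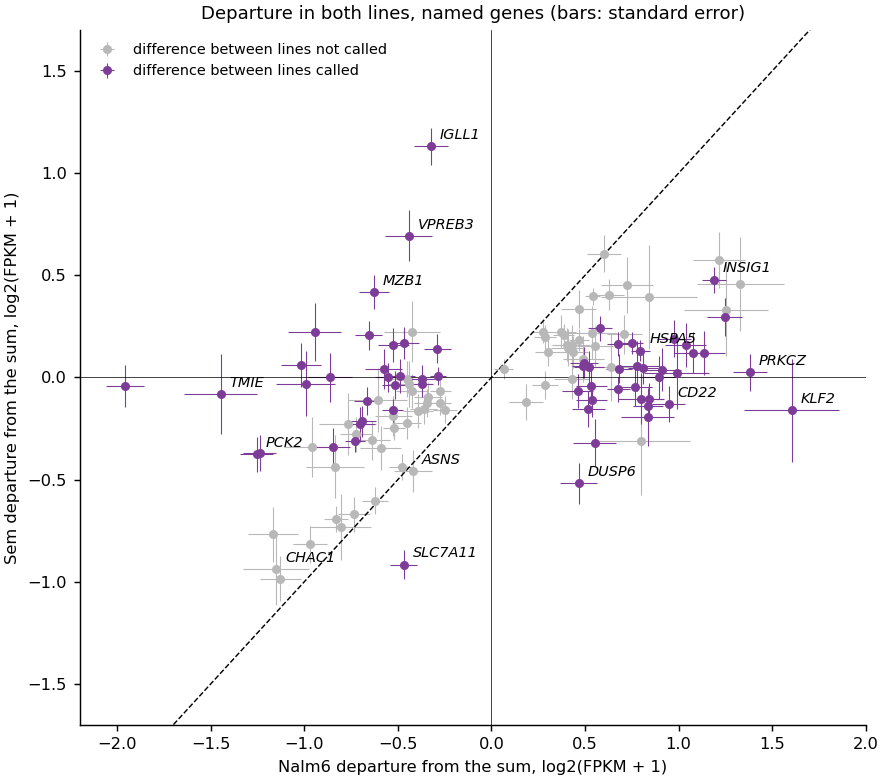
Departure from the sum in Sem (vertical) against Nalm6 (horizontal) for the named genes, in log2(FPKM + 1) with standard errors, from the fit of 24 libraries; the dashed line marks equal departures. Genes whose difference was called are purple: KLF2, PRKCZ and CD22 lie far right near 0 in Sem, IGLL1 and VPREB3 lie high on the left, and CHAC1 and ASNS, in grey, lie near the dashed line.

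Recovered reads per Nalm6 library numbered 15355402 to 17697697. Genes in combination 1, asparaginase 1 and untreated 2 followed GC content differently from the other libraries of their groups (-0.12 log2 units per 10 points of GC in combination 1, against 0.05 in each of the other combination libraries). Without these 3 libraries 1610 genes departed, 922 above and 688 below, including 645 of the 739. The GC trend was -0.03, -0.04 and -0.07 in the ibrutinib libraries. Leaving the set of 3 out thus made ibrutinib the only group with negative trends. The part of GC content in the counts without the set of 3 was not tested. With GC and length trends removed from each library, 1571 genes departed, including 719 of the 739. Without combination 1, asparaginase 1 or untreated 2 alone, 970, 566 and 665 were called. With single libraries left out, between 430 (ibrutinib 2) and 970 (combination 1) genes were called. Counts below 1/1.5 of 739 were found without untreated 3 (456), ibrutinib 1 (458), ibrutinib 2 (430), ibrutinib 3 (462), asparaginase 2 (456) and asparaginase 3 (445). Whether libraries were stranded was not stated, so overlapping genes on opposite strands may share reads.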

How the data were processed

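RNA of 24 libraries was sequenced, and 12 are described here. The submitters' processing notes name fastp, STAR, featureCounts and hg38, with no versions. The authors deposited FPKM, with the gene length, in 1 table. In it 21.2% of values, those of 1 or more, lack the decimal point. Each was restored as the reading that gave whole reads and lay closest to the other libraries under an additive model with heavy-tailed priors. Of 148263 such Nalm6 values, 170 in 107 genes had a posterior under 0.99. The deposited unit was FPKM, so limma 3.58.1 (R 4.3.3) was fitted, with a mean-variance trend, to log2(FPKM + 1) of genes with at least 1 FPKM in 3 of 12 libraries. The same fit gave each drug change. Other scalings, pseudocounts, filters, priors, trends and sets of libraries were tried, as was voom on the recovered reads. Named genes were the 15 largest departures in each direction (group mean of at least 5 FPKM, protein coding, certain decimals), up to 4 called members of each list, a fixed set and the 5 largest line differences in each direction. Others were named after their values were seen. Members and lists were chosen with earlier results of these data known.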

Additional observations from a re-analysis of the deposited data

Results flagged for a closer look

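Named genes are given here where their departure from the sum differed between the lines in the fit of 24 libraries (limma, adjusted p under 0.05). Values are Nalm6 minus Sem on the log2(FPKM + 1) scale. Surface, signalling and other lymphoid-line genes were more positive in Nalm6, namely KLF2 (1.76), CD22 (1.08), EVI2B (1.02), P2RY8 (0.95), LRMP (0.78), LPAR6 (0.97), RNF19B (0.88), ZNF608 (0.87), PIK3CD (0.72), PTPN6 (0.65), DUSP6 (0.99), SPRY2 (0.87), OTUD1 (1.03), PIK3CA (0.53) and RRAGC (0.67). Transcription factors of the lineage and of progenitor growth were more positive in Nalm6, namely LEF1 (0.76), SOX4 (0.51), IKZF1 (0.58), IRF4 (0.47) and MYB (0.58). Mitotic genes were more positive in Nalm6, namely CDC20 (0.97), AURKA (0.95), CENPA (0.90) and PLK1 (0.81). The chaperone genes HSPA5 (0.66), HSPA8 (0.64), CALR (0.34) and HSPH1 (0.42), the sterol gene INSIG1 (0.71) and the p53 target MDM2 (0.74) were more positive in Nalm6. In the cholesterol list, 2 genes not named here were more negative in Nalm6. Replication and cell cycle genes were more negative in Nalm6, namely GINS2 (-0.86), E2F2 (-0.68), CHAF1B (-0.63), CCNE2 (-0.62) and UNG (-0.50). Genes of the amino acid response, synthesis and uptake were more negative in Nalm6, namely PCK2 (-0.88), SLC3A2 (-0.55), LARS (-0.48), DDIT4 (-0.47) and MTHFD1L (-0.42). Genes of growth, nucleotide synthesis and glycolysis were more negative in Nalm6, namely NOLC1 (-0.37), PAICS (-0.34), ATIC (-0.36), NOP14 (-0.29) and PFKM (-0.43). Other genes were more negative in Nalm6, namely IGLL1 (-1.46), TMIE (-1.36), F2RL3 (-1.17), VPREB3 (-1.13), MZB1 (-1.05), SLC23A1 (-0.96), RIMS3 (-0.87) and TRAPPC6A (-0.51). The cystine transporter SLC7A11 (0.45), another gene of amino acid uptake, was more positive in Nalm6. In 9 genes every Sem group mean was under 1 FPKM, so Sem could show little departure: PRKCZ (1.36), TENT5C (0.96), RAG1 (0.43), TSPAN8 (0.89), PDGFA (-1.08), TCERG1L (-0.86), HRK (-0.55), H1F0 (-0.48) and ASS1 (-1.92). Among these, TSPAN8 changed sign in Nalm6 with the pseudocount and ASS1 rests on an uncertain decimal place. Sem levels were also low for ZNF608 (0.762 to 1.13 FPKM across group means). For DUSP6 they were low with the combination (0.345 FPKM) and with ibrutinib alone (0.292 FPKM).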

How the results depend on the processing

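Of 739 departures, 430 to 970 were called with single libraries left out (241 to 535 above the sum and 189 to 435 below). Calls numbered 1360 with 24 libraries in one fit (721 above, 639 below), 1571 with GC and length trends removed (756 above, 815 below), and 1610 without combination 1, asparaginase 1 and untreated 2 (922 above, 688 below). TPM rescaling gave 255 above, and voom on recovered reads gave 677 below. The labels do not say whether replicate numbers pair the libraries, and the correlations cannot decide it. Between groups, the correlation of same-numbered deviations ran from -0.19 to 0.38, with 5 of 18 over 0.1. That of differently numbered ones ran from -0.26 to 0.31, with 8 of 36 over 0.1. The replicate block gave 578 calls, and the block with GC and length trends removed gave 1411 (688 above, 723 below). The cause of these shifts was not tested. The count stayed within 1.5 times of 739 with quantile normalization (888), pseudocounts of 0.1 (702) and 0.5 (716), no filter (540), a minimum of 5 FPKM (717), a wider prior (744) and certain decimals only (748). TSPAN8 changed sign with a pseudocount of 0.1 (-0.13) and voom (-0.59). The difference between the lines was called for 366 genes, 330 with TPM, 434 with quantile normalization, 342 with the block, and 259 to 453 with single libraries left out (154 to 284 above, 97 to 169 below). edgeR was not run. Of 116 named genes called, 89 kept the call whichever library was left out. With 3 libraries a group, small departures were not detectable, and a departure near 10-fold could be mistaken for a lost decimal place.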
